A study of Mus musculus with 4 samples.

Results

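Transcription factors that set the identity of fore- and hindlimbs and pattern the limb bud were read in embryonic muscle pieces of limb and back. The 10 genes were the forelimb factor Tbx5, the hindlimb factors Tbx4 and Pitx1, and the patterning factors Tbx2, Tbx3, Msx1, Msx2, Lhx2, Lhx9 and Lmx1b, taken by symbol out of 18193 genes named on the array. They were read by 23 probe sets of 45101, and every one of these was used. The RNA came from pieces dissected as limb or back muscle at E13.5 in mouse embryos, with 1 Affymetrix array for each of 4 groups: BALB/c WT limb, BALB/c Myod null limb (MyoD-null), BALB/c WT back and BALB/c Myf5 null back. The labels do not give the number of embryos behind an array, whether fore- or hindlimbs were taken, the level of the back, or the structure of the null alleles. Myod1 and Myf5 encode muscle-determining transcription factors. The Myod1 signal was 688 in MyoD-null limb and 1438 in WT limb, and the position of its probes relative to the allele is not in the labels. The Myf5 signal was 583 in the back array with the Myf5-null label against 508 in WT back, so that array is named by its label throughout. With 1 array a group there is no replicate error and no test over samples, and every difference is between single arrays.

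As background, Tbx5 is expressed in the forelimb bud and Tbx4 and Pitx1 in the hindlimb bud, where Pitx1 acts upstream of Tbx4. Both T-box genes act in limb outgrowth through Fgf10. The repressors Tbx2 and Tbx3 are expressed at the limb margins and in other organs, and Msx1 and Msx2 encode homeodomain repressors that respond to BMP signals in the distal mesenchyme. Lhx2, Lhx9 and Lmx1b encode LIM-homeodomain factors that act together below the ectoderm, where Lmx1b gives the dorsal side its identity. They are best known from the connective tissue and skeletal precursors of the limb.

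The 10 genes hold paralogue pairs, and the T-box genes lie as neighbours in the genome: the RefSeq gene table lists 0 protein-coding genes between Tbx2 and Tbx4 and 0 between Tbx3 and Tbx5. Promoter sequences were held in the RefSeq table (GRCm38.p6) for 6 of the 10 genes, Tbx4, Msx1, Msx2, Lhx2, Lhx9 and Lmx1b. The 250 bases before the start site are shown for Tbx4 (chr11:85896515-85896764, plus strand) and for 3 genes that were high in both limb arrays, Msx1 (chr5:37824586-37824835, minus strand), Msx2 (chr13:53472781-53473030, minus strand) and Lhx9 (chr1:138842445-138842694, minus strand). They are shown to set a hindlimb identity gene beside the 3 genes with the highest ratios of WT limb over WT back among the 10. Capitals mark matches, on either strand, to the TATA box TATAAA, the CCAAT box CCAAT, the GC box GGGCGG, the homeodomain core TAATTA, the bicoid-type site TAATCC or the T-box half-site AGGTGTGA. None of these motifs overlaps another in the windows shown.
Tbx4: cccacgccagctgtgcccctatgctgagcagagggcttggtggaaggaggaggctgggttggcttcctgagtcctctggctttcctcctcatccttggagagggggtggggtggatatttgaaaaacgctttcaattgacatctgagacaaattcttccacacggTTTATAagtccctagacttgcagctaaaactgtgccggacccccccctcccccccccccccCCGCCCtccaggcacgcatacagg
Msx1: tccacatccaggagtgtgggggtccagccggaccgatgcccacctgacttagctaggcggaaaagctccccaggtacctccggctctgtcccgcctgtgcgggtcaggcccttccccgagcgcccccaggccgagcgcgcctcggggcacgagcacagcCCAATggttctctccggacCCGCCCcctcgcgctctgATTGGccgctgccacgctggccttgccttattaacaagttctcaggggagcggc
Msx2: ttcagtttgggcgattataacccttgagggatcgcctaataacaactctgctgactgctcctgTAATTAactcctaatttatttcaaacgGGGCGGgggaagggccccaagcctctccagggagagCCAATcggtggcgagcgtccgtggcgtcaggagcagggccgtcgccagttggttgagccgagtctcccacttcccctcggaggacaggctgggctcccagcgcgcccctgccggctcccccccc
Lhx9: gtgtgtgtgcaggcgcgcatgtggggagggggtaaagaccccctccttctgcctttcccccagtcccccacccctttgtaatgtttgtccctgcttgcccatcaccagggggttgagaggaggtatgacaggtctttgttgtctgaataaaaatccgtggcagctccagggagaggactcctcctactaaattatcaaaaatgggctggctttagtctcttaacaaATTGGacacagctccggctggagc

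The Tbx4 window held 1 TATA box, on the strand opposite to the gene and ending 79 bases before the start site, and 1 GC box. Of all 32851 windows of the same length in the table, 12.4% held a TATA box and 32.7% a GC box. The Msx1 window held 2 CCAAT boxes and 1 GC box, the Msx2 window 1 of each and 1 homeodomain core, and the Lhx9 window 1 CCAAT box, against 33.8% of all windows with a CCAAT box and 4.84% with the homeodomain core. No window of the 6 genes held the T-box half-site (1.12% of all windows) or the bicoid-type site (6.25%). A match describes letters only. The GC content of the windows shown ran from 53.6% in Lhx9 to 68.0% in Msx1, with a median of 52.4% over all windows.

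Signals below are intensities scaled to a common trimmed mean of 500. A signal under 100 was treated as having no level, and each gene is read from whichever of its probe sets is brightest on average over the arrays (mean log2). Genes counted as different had a ratio of 2 or more and a signal of 200 or more on the brighter side. Levels of different probe sets cannot be compared, so each gene is compared only with itself across arrays. Probe sets of one gene scattered around each other with a median SD (log2 ratio) that was 0.40 in the limb pair and in WT limb over WT back and 0.38 in the back pair; it says nothing of variation between animals. In these bulk pieces, fewer cells of a type and less RNA per cell cannot be told apart.

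**Figure D1:**
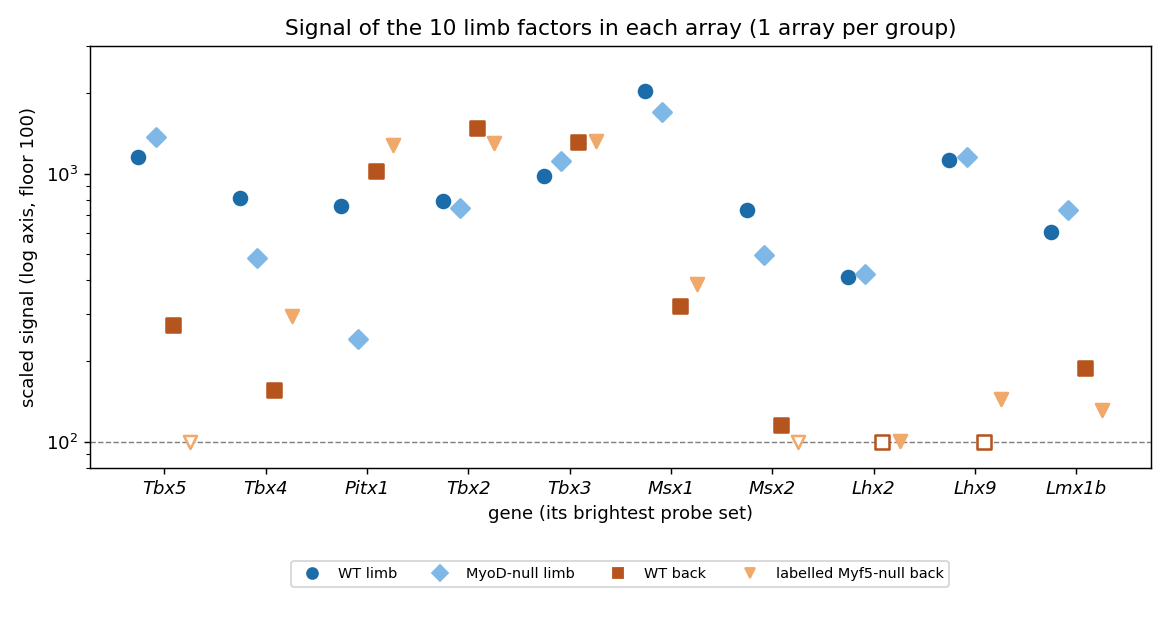
Scaled signal of each gene's brightest probe set in the 4 arrays, on a log axis; each point is 1 array, and open points lie under the floor of 100 (dashed line). Tbx5, Msx1, Msx2, Lhx2, Lhx9 and Lmx1b are at least 2-fold higher in both limb arrays than in both back arrays, Tbx4 is higher by less, and Pitx1, Tbx2 and Tbx3 are higher in both back arrays.

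The factors of the limb bud separated limb from back more than most genes did. In WT limb over WT back, 7 of the 10 genes were at least 2-fold higher and 0 were lower by as much, against 6.76% higher and 4.47% lower of the 11444 genes that reached 200. The median log2 ratio of the 10 genes was 2.06, against 0.02 over all genes. The larger of these ratios stood among the highest on the array: 2 genes had a ratio above that of Lhx9, 8 above Msx2, 9 above Msx1, 17 above Tbx4, 33 above Tbx5 and 34 above Lhx2. Of the 18 probe sets of the 10 genes that reached 200, 12 were at least 2-fold higher in WT limb, against 8.59% of all such probe sets. All probe sets at 200 or more had the same sign within each of the 6 genes that had several.

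With the mutant arrays included, the lower limb array was at least 2-fold above the higher back array for 6 of the 10 genes, Tbx5, Msx1, Msx2, Lhx2, Lhx9 and Lmx1b, against 0.587% of 12426 genes. None of the 10 was lower by this rule, against 0.628%. Without a limit on size, 7 of the 10 lay higher in both limb arrays than in both back arrays, against 19.9% of genes, and the other 3, Pitx1, Tbx2 and Tbx3, lay lower, against 21.0%. The WT arrays take part in this comparison and in the one above, so these are not separate results.

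Tbx5, which starts forelimb outgrowth, had a signal of 1152 in WT and 1375 in MyoD-null limb, against 273 in WT back and under 100 in the back array with the Myf5-null label. Both limb arrays were thus high, and the log2 ratio of WT limb over WT back was 2.08. In the limb pair the ratio was 0.25, less than the spread between probe sets. In the back pair Tbx5 was at least 2.73-fold lower in the back array with the Myf5-null label. A dimmer probe set of Tbx5 did not follow: it gave 261, 138, 164 and 154 in the same order, which is -0.92 in the limb pair, -0.09 in the back pair and 0.67 for WT limb over WT back. The direction of Tbx5 between the limb arrays therefore differed between its probe sets, and their median was -0.33.

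Tbx4, its hindlimb counterpart, had a signal of 815 in WT and 484 in MyoD-null limb, against 156 in WT back and 295 in the back array with the Myf5-null label. The limb arrays lay above the back arrays, but the lower limb array was only 1.64-fold above the higher back array. WT limb over WT back gave a log2 ratio of 2.38, MyoD-null over WT limb -0.75 and the back pair 0.92. The limb-pair and back-pair differences were each smaller than 2-fold. The dimmer probe set gave 160, 122, 102 and under 100, with -0.39 in the limb pair and 0.64 for WT limb over WT back.

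Pitx1, the homeodomain factor of hindlimb identity, had the reverse order of tissues. Its signal was 757 in WT and 243 in MyoD-null limb, against 1025 in WT back and 1276 in the back array with the Myf5-null label, so that both back arrays were above both limb arrays. WT limb and WT back differed little (-0.44), while MyoD-null limb was 3.12-fold lower than WT limb (-1.64). The second probe set gave 401 in WT and under 100 in MyoD-null limb, against 487 in WT back and 556 in the back array with the Myf5-null label. For this one MyoD-null limb was at least 4.01-fold lower, and -0.28 for WT limb over WT back. Both probe sets of Pitx1 thus showed the lower limb value in the mutant, and 71 of 11344 genes had a lower ratio in that pair.

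Within the limb pair, Tbx5 and Pitx1 differed in their ratios, while the difference between Tbx5 and Tbx4 depended on the probe set. The log2 ratio of Tbx5 exceeded that of Pitx1 by 1.90 (3.72-fold), and the difference was above 0 for all 4 combinations of their probe sets, from 0.72 to 2.26. Tbx5 exceeded Tbx4 by 1.01 (2.01-fold), but only 2 of 4 combinations were above 0, from -0.52 to 1.01. The list of hindlimb-level genes held Hoxc9, Hoxc10, Hoxc11 and Isl1, of which 3 had a probe set. Hoxc10, a Hox gene of the lumbar level and hindlimb, was 397 in WT and under 100 in MyoD-null limb, against 832 in WT back and 854 in the back array with the Myf5-null label, so MyoD-null limb was at least 3.97-fold below WT limb. Isl1, a LIM-homeodomain gene needed for hindlimb buds and also made by motor neurons, was 289, 128, 341 and 339 (-1.18 in the limb pair, with 0.12 in a dimmer probe set). Hoxc9 stayed under 200 in both limb arrays and was 452 and 478 in the back arrays. Both measurable genes of this list were thus 2-fold or more lower in the MyoD-null limb array, where 6.64% of all genes were. For Isl1 the ratio was smaller than 2-fold under quantile normalization (-0.96), loess (-0.95), a pseudocount of 100 (-0.77), a floor of 200 (-0.53) and as a median over probe sets (-0.53), and for Hoxc10 with a floor of 200 (-0.99). The list of forelimb-level Hox genes had 0 of 4 measurable genes at least 2-fold apart in the limb pair, with a median of 0.06. Over all genes 2.94% were at least 2-fold higher there and 6.64% lower. A count of 0 of 4 is near that background. Which limbs went into each array is not in the sources used here, and its part in these differences was not tested.

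**Figure D2:**
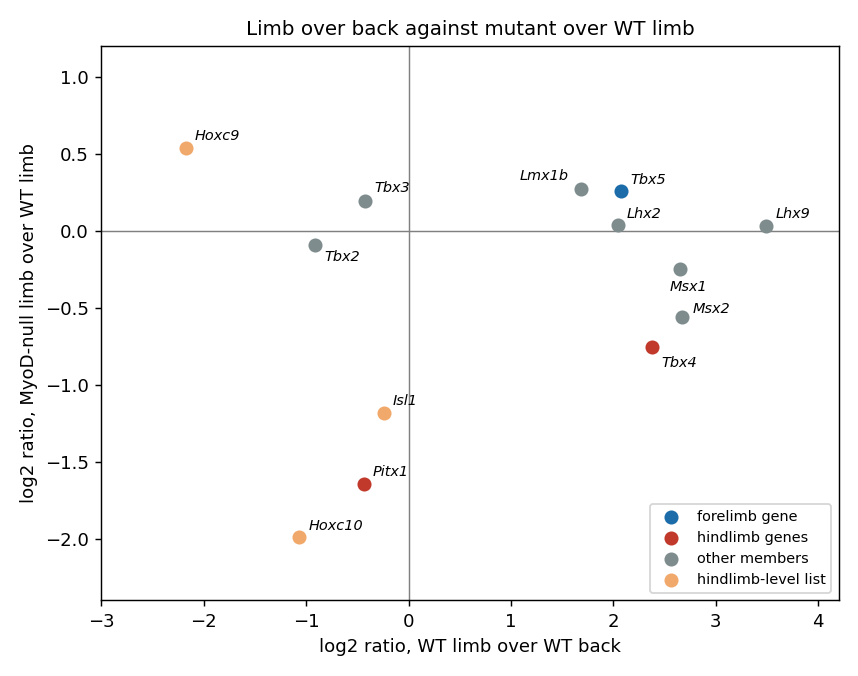
Log2 ratio of WT limb over WT back (horizontal axis) against log2 ratio of MyoD-null over WT limb (vertical axis), each point 1 gene by its brightest probe set; the axes share the WT limb array. Pitx1, Hoxc10 and Isl1 lie below -1 on the vertical axis and left of 0 on the horizontal one, Tbx5 lies at 0.25, and Hoxc9 is under 200 in both limb arrays.

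Over the 10 genes, MyoD-null and WT limb differed in both directions: 5 ratios were above 0 and 5 below, with a median of -0.03 against -0.01 over all genes. Only Pitx1 was at least 2-fold lower, 1 of 10 against 6.64% of genes, and 0 were at least 2-fold higher, against 2.94%. A count of 1 in 10 is near that background. Of 18 probe sets at 200 or more, 3 were at least 2-fold lower, against 9.0% of all: both of Pitx1 and 1 of Lhx9. In this pair the probe sets of Tbx5, Msx2 and Lhx9 disagreed in sign, 3 of the 6 genes with several probe sets at 200 or more.

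The repressors Tbx2 and Tbx3 were less than 2-fold apart between WT limb and WT back, with a larger difference for Tbx2. Of 11444 genes, 618 had a lower ratio than Tbx2 there. Tbx2 was 791 in WT and 742 in MyoD-null limb, against 1487 in WT back and 1304 in the back array with the Myf5-null label. Both back arrays were above both limb arrays, by 1.65-fold at the nearest, and WT limb over WT back was -0.91. Tbx3 was 978, 1119, 1314 and 1331 in its brightest probe set, which carries the array maker's mark for probes that match other transcripts too, and 646, 782, 684 and 853 in the next. The first put both back arrays above both limb arrays by 1.17-fold and the second had overlapping values, with ratios for WT limb over WT back of -0.43 and -0.08. Another probe set of Tbx3 was different between the limb arrays, at 197 in WT limb and under 100 in MyoD-null limb, and the last 2 reached 200 in no array. That difference between the limb arrays is at least 1.97-fold.

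Msx1 was 2029 in WT and 1705 in MyoD-null limb, against 322 in WT back and 387 in the back array with the Myf5-null label. The limb arrays were high and the back arrays low, with 4.41-fold between the nearest of them. This probe set carries a mark for shared probes, but the second probe set of Msx1, at 420, 316, under 100 and 226, also lay higher in both limb arrays. In the back pair that second probe set was at least 2.26-fold higher in the back array with the Myf5-null label, while the first gave only 0.27. Msx2 was 732 in WT and 497 in MyoD-null limb, against 115 in WT back and under 100 in the back array with the Myf5-null label. Its second probe set was 412, 469, 123 and 150, so both separated limb from back by at least 2.75-fold, while their limb-pair ratios of -0.56 and 0.19 had opposite signs. Msx1 and Msx2 had the most similar profile of any pair among the 10 genes, at a distance of 0.41 between mean-centred log2 signals over the 4 arrays.

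Genes that respond to BMP, as Msx genes do, were read from a list of 7. All 7 reached 200 and had WT limb above WT back, against 51.4% of all genes that reached 200. For Smad6 the difference was slight, at 476 against 463 (0.04). Only Bambi, a BMP pseudoreceptor, was at least 2-fold higher, where 6.76% of all such genes were. Its signal was 759 in WT and 891 in MyoD-null limb, against 338 in WT back and 487 in the back array with the Myf5-null label. The median log2 ratio of the list was 0.49, against 2.66 for Msx1. Of the ligands, Bmp2 was 720, 573, 484 and 356 in the same order and Bmp4 849, 963, 931 and 1040. The limb and back arrays thus overlapped for Bmp4. Bmp7 was 654, 1001, 586 and 466, while its other probe sets gave 0.50 and -0.75 for WT limb over WT back.

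The LIM-homeodomain members were low or without a level in back. Lhx9 was 1127 in WT and 1153 in MyoD-null limb, against under 100 in WT back and 145 in the back array with the Myf5-null label, and so at least 11.3-fold higher in WT limb than in WT back. A second probe set was 879 and 1235 in the limb arrays and under 100 in both back arrays, and one marked for shared probes 268 and 290 against under 100 in both. The remaining probe set, with another letter mark, was 382, 142, 167 and 161, and it alone put the limb arrays apart (-1.43). Lhx2 was 413 in WT and 423 in MyoD-null limb, against under 100 in WT back and 101 in the back array with the Myf5-null label, at least 4.13-fold higher in WT limb than in WT back. Only 1 probe set reads Lhx2. Lmx1b was 607 in WT and 732 in MyoD-null limb, against 189 in WT back and 131 in the back array with the Myf5-null label, with 3.21-fold between the nearest limb and back arrays. Its second probe set stayed under 200 in all arrays and did not separate the tissues.

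Relatives of these factors differed in how far they separated limb from back. Of 5 measurable other T-box genes, 2 were at least 2-fold higher in WT limb than in WT back, with a median of 0.70. Over all genes that reached 200, the shares were 6.76% higher and 4.47% lower. Tbx18 was 2901, 4613, 702 and 418 in the order of arrays used above, and Eomes 429, 308, under 100 and 298, so Eomes was not low in both back arrays. Of 4 measurable other Pitx, Msx and Dlx genes, 2 were higher by as much, with a median of 0.85. Dlx5 was 505, 447, 183 and 126, and Dlx6 was 221 in WT limb and under 100 in the other arrays. Of 9 other LIM-homeodomain genes, 3 reached 200 in a WT array, and 0 of the 3 was 2-fold apart between WT limb and WT back. The cofactor Ldb1, which bridges LIM-homeodomain proteins, was 985, 1242, 1059 and 1193 in the same order, and 0 of 8 measurable cofactors was 2-fold apart. Counts of 0 of 3 and 0 of 8 are near the background. Matrix genes reported to depend on Lmx1b went different ways. Kera was 1814 in WT and 1718 in MyoD-null limb, against 523 in WT back and 592 in the back array with the Myf5-null label. Dcn was 2995, 2044, 8945 and 8930, though another probe set of Dcn gave 0.82 for WT limb over WT back. The dorsal signal Wnt7a, which induces Lmx1b, was under 100 in WT and 296 in MyoD-null limb, against 113 in WT back and 556 in the back array with the Myf5-null label, an order unlike that of Lmx1b. Another probe set of Wnt7a gave 0.70 in the limb pair and 0.07 in the back pair.

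**Figure D3:**
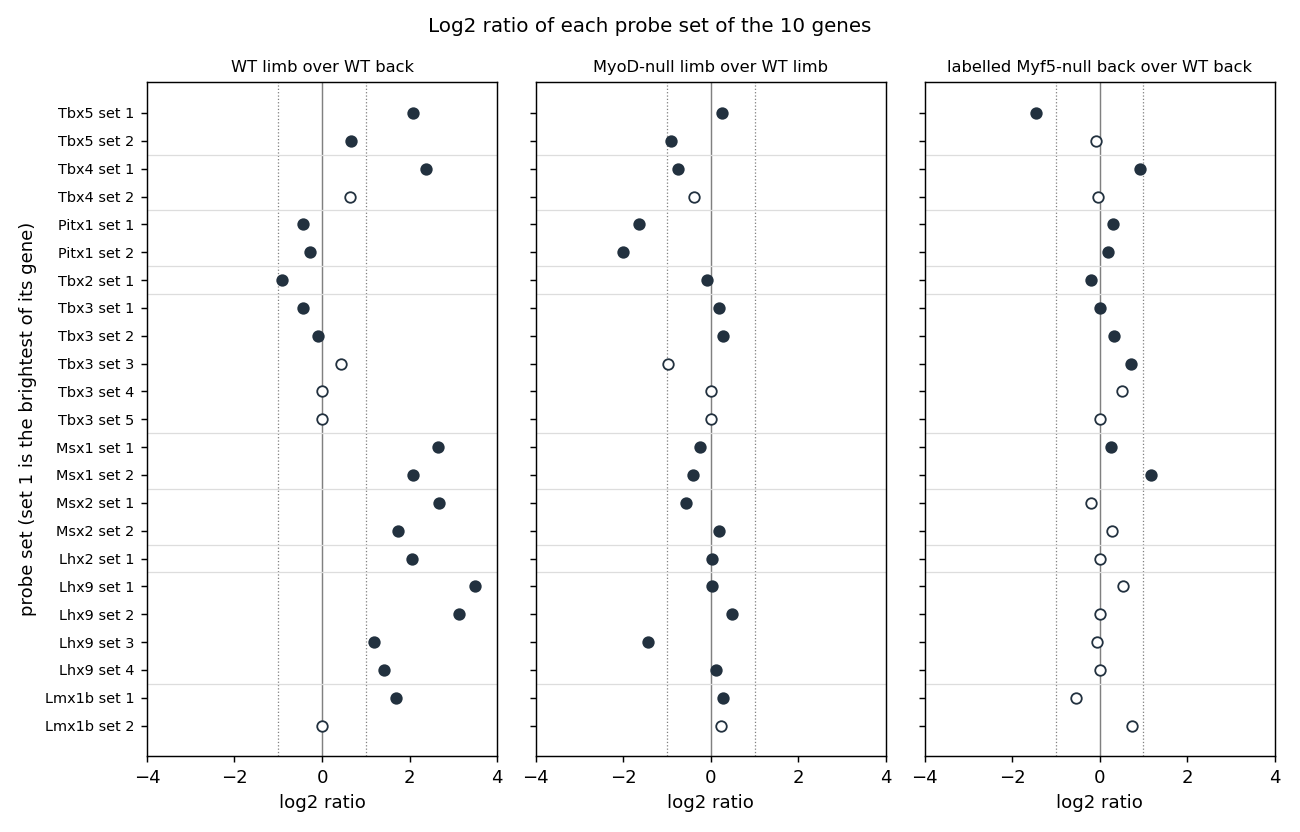
Log2 ratio of each of the 23 probe sets in 3 comparisons, one panel each; filled points reached 200 in the brighter array of the pair, open points did not, and dotted lines mark 2-fold. In the left panel 12 filled points lie beyond 2-fold to the right, in the middle panel both sets of Pitx1 and 1 of Lhx9 lie beyond 2-fold to the left, and in the right panel Tbx5 set 1 lies beyond 2-fold to the left and Msx1 set 2 to the right.

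In the back pair 6 of the 10 genes reached 200, and Msx2, Lhx2, Lhx9 and Lmx1b did not. Of the 6, 1 was at least 2-fold lower in the back array with the Myf5-null label (Tbx5), against 3.13% of 11633 genes, and 0 were at least 2-fold higher, against 6.95%. The median of the 6 was 0.14, against 0.02 over all genes. By probe set, 1 of 10 was lower (4.08% of all) and 1 of 10 higher (9.49%), the latter the second of Msx1. The brightest probe sets of Tbx5 and Tbx4 differed in direction here, with Tbx5 lower by more than Tbx4 was higher. Their dimmer probe sets gave -0.09 and -0.04. The 4 combinations of their probe sets gave a difference from -2.37 to -0.06.

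Other limb genes were read from lists to place the 10 genes. Among 8 measurable Hox genes used along the limb, 7 were at least 2-fold higher in WT limb than in WT back, with a median of 1.64. Of the 11444 genes that reached 200, 6.76% were higher and 4.47% lower by as much, the background for the lists here. Hoxd13, the Hox gene of the digits, was 12104 in WT and 15406 in MyoD-null limb, against 157 in WT back and 167 in the back array with the Myf5-null label. Hoxd10 was 1756, 1522, under 100 and 168. Of 19 measurable mesenchymal transcription factors of the limb, 7 were higher by 2-fold or more and 1 was lower by as much, with a median of 0.83. Shox2, a homeobox gene of the proximal limb, was 3759, 4304, 761 and 299. Meis1, a homeobox gene of the proximal limb and trunk, was the lower one, at 1066, 684, 2656 and 2624, with -0.96 and 1.01 in its other probe sets. Of 18 measurable signalling genes, 3 were at least 2-fold higher, among them the retinoic acid enzyme gene Aldh1a2 at 3470, 3927, 1377 and 1272, and Fgf10 and Fgf8 were under 100 in all 4 arrays. Forelimb-level Hox genes went the other way, with 5 of 5 below 0 and a median of -0.66, while 51.4% of all genes were above 0. Of the 21 lists, the 10 genes and the limb Hox genes thus had the highest medians, while the hindlimb-level list had a median of -1.07.

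**Figure D4:**
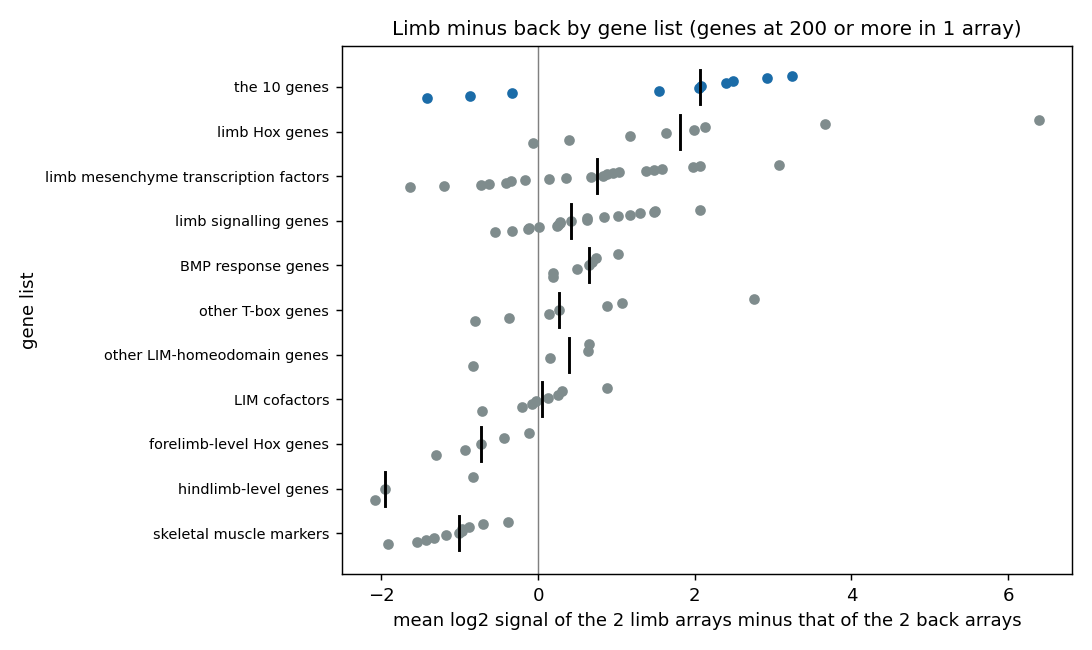
Mean log2 signal of the limb arrays minus that of the back arrays (horizontal axis) for genes at 200 or more in at least 1 array, by list (vertical axis); each point is 1 gene and each black bar a list's median. The median is 2.07 for the 10 genes and 1.81 for the limb Hox genes and -1.95 for the hindlimb-level genes.

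The profiles most like those of single members, by the distance between mean-centred log2 signals over 4 arrays, were found among 12425 other genes. For Tbx5 these were Shox2 (distance 0.17), Mecom (0.36) and Tbx18 (0.60). For Pitx1 they were Nfkb2 (0.22), Col12a1 (0.34) and Rabl2 (0.35), and for Tbx4 they were Hmbox1 (0.09), Fam181b (0.25) and Smim22 (0.27). Hoxa11 was among the 3 nearest genes of Msx1, Msx2 and Lhx2, and Hoxd10 was the nearest to Lhx9 (0.47). Lmx1b was nearest to the Wnt inhibitor Wif1 (0.13). Profiles like those of Tbx3 and Tbx2 were more common, as 4113 genes lay within 0.5 of Tbx3 and 696 within 0.5 of Tbx2, against 2 within 0.5 of Tbx5.

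Markers of several other tissues differed between the arrays. The summed signal of 11 skeletal muscle markers was 77086 in WT and 48869 in MyoD-null limb, against 148441 in WT back and 99290 in the back array with the Myf5-null label, all 11 at 100 or more in each. The limb pieces, where the limb factors were high, thus had the lower muscle sums. For 10 epidermis markers the sum was 15281, 17209, 8900 and 11294, higher in both limb arrays. For 8 cartilage markers it was 17033, 20460, 19402 and 4327, lowest in the back array with the Myf5-null label, where the brightest probe set of Tbx5 was under 100 and the other was 154. For 12 neuron and spinal cord markers it was 1516, 1382, 2772 and 2402, and the spinal cord genes Olig2 and Nkx6-1 were under 100 in all 4 arrays. Sums for 7 fibroblast markers were 88637, 77740, 98294 and 110441, and for 7 tendon markers 8472, 6976, 9050 and 6332. For 4 Schwann cell markers the sum was 3102, 3707, 4379 and 3436. For 5 liver markers it was 749, 326, 2730 and 618, highest in WT back. The 10 trunk and body wall genes summed to 8309, 9795, 5185 and 3620. Of 6 measurable in WT limb over WT back, 2 were at least 2-fold higher, against 6.76% of genes. They were Tbx18, also read above as a T-box gene, and Meox2 (2613, 2501, 769 and 467). Meox1 was lower by as much (1052, 849, 2122 and 1651), 1 of 6 against 4.47% of genes. The ratio of 3′ to 5′ probe set signal for Gapdh also varied, at 12.2 in WT and 8.06 in MyoD-null limb, against 6.45 in WT back and 9.46 in the back array with the Myf5-null label. The part of tissue content and labelling in the values above was not tested.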

How the data were processed

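Each of the 4 samples was measured on 1 array from 6 µg of RNA, and groups were taken from the sample titles. The deposited values are intensities on a linear scale, 1 per probe set, and the submitters' processing notes name MAS5, without a version in the sources used. Detection calls and scanner files were not used here. The deposited columns had 2% trimmed means from 1477 to 1479, so they had been scaled to one target, and 56.0% to 63.6% of probe sets reached 100 after the rescaling described here.

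Each array was scaled to a trimmed mean of 500, a floor of 100 was applied, and ratios were formed on the log2 scale (Python 3.11.15, pandas 2.3.3, SciPy 1.17.1). Low genes are compressed by this floor. Probe sets were named by the platform annotation: 34945 that are no controls have 1 symbol and 932 several (used for no name). All 10 symbols matched the RefSeq table by Entrez number. Named are the members with all probe sets, up to 4 counted genes of largest ratio per list (others are named where a list's description needs them), and the 3 genes of nearest profile per member. The members and lists were chosen with earlier results of these data known. Genes chosen after their values were seen are Bmp2, Bmp4, Bmp7, Ldb1, Fgf8, Fgf10, Olig2 and Nkx6-1. Alternatives comprised loess with a span of 0.3, quantile normalization, the deposited scale, floors of 50 and 200, and a pseudocount of 100. Others were the median over probe sets, a ratio of 1.5 and leaving out probe sets marked as shared. The last left out every probe set with a letter mark in its name, of whichever kind. The scripts were tested on simulated data. The number of arrays limits the precision.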

Additional observations from a re-analysis of the deposited data

Results flagged for a closer look

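Tbx4 went opposite ways in the limb and back pairs, each by more than the spread between probe sets. Its log2 ratio was -0.75 in MyoD-null over WT limb and 0.92 in the back array with the Myf5-null label over WT back. Many genes lay further out: 1157 of 11344 had a lower ratio in the limb pair, and 925 of 11633 a higher one in the back pair. The mutated gene differs between the pairs, each has 1 array a side, and the difference was not tested. The dimmer probe set of Tbx4 gave -0.39 and -0.04.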

How the results depend on the processing

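The counts of members at least 2-fold higher in WT limb than in WT back, and in both limb arrays than in both back arrays, stayed within 1.5 times of 7 and 6 under each alternative. With a ratio of 1.5 in place of 2, members lower came to 1 in WT limb over WT back, 2 in MyoD-null over WT limb and 1 in both limb over both back arrays, and members higher in the back pair to 1. Members higher in the back pair were 2 with no rescaling and 1 without probe sets marked as shared; members lower there were 0 with a floor of 200 and 0 as a median over probe sets. As a median over probe sets, the median of the members was 1.44 for WT limb over WT back and 1.30 for limb over back, and Tbx5 exceeded Tbx4 by 0.24 and Pitx1 by 1.49 in the limb pair. With a floor of 200 the limb over back median was 1.48. No member at least 2-fold apart reversed. Among smaller ratios, Tbx5 in the limb pair changed sign as a median over probe sets (-0.33) and Lhx9 under quantile normalization and loess (down to -0.03). Of all genes at least 2-fold apart in the limb pair, 30.7% were higher, against 45.4% under quantile normalization and 48.8% after loess; in the back pair the shares were 68.9%, 50.3% and 45.4%. In WT limb over WT back the shares were 60.2%, 53.5% and 51.3%. Without rescaling, genes at least 2-fold higher and lower there numbered 2101 and 1372, against 774 and 511. In that setting the floor of 100 and the limit of 200 were unchanged, on signals with trimmed means from 1477 to 1479. Both cutoffs were thus lower relative to the signals. The cause of the shifts in the shares was not tested. Signals near or under 100 limit Lhx2, Lhx9 and Msx2 in back, and Tbx5 in the back array with the Myf5-null label. Ratios with a signal under 100 on one side are bounds. No paired analysis was possible because each group has 1 array.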
